A study of Arabidopsis thaliana with 24 samples.

Results

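HSP90 and HSP100 proteins are ATP-driven molecular chaperones. This account covers 10 of their genes in Arabidopsis, out of 27655 genes in the deposited table: the 7 HSP90 genes and 3 genes of the ClpB class of HSP100. They were listed by gene identifier, with earlier results of these data known. They are HSP90.1 (AT5G52640), HSP90.2 (AT5G56030), HSP90.3 (AT5G56010), HSP90.4 (AT5G56000), HSP90.5 (AT2G04030), HSP90.6 (AT3G07770), HSP90.7 (AT4G24190), HSP101 (AT1G74310), CLPB3 (AT5G15450) and CLPB4 (AT2G25140). All 10 passed the filter on low counts and were tested.

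As background, HSP90 works as a dimer that binds client proteins late in their folding, such as kinases, hormone receptors and immune receptors, and passes through an ATP cycle set by co-chaperones. ClpB proteins form hexameric rings that pull single polypeptides out of aggregates, which HSP70 and its partners then refold, and in plants cytosolic HSP101 is needed for acquired tolerance of heat. Each compartment has members of its own. HSP90.1 to HSP90.4 and HSP101 act in the cytosol and nucleus, HSP90.5 (listed as CR88) and CLPB3 in plastids, HSP90.6 (listed as Hsp89.1) and CLPB4 in mitochondria, and HSP90.7 (listed as SHD, for SHEPHERD) in the endoplasmic reticulum. When unfolded proteins accumulate, heat shock factors bind heat shock elements in promoters of many of these genes.

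The samples were rosettes of wild-type Columbia-0 plants, 24 RNA-seq libraries in 8 groups of 3 biological replicates. The plants were grown on soil at a day temperature of 22 °C. The salt group had been watered with 150 mM NaCl, the mannitol group with 200 mM mannitol (an osmotic stress), and the salt plus mannitol group with both in one solution, each 16 h before harvest. The heat group spent the last 4 h in another growth cabinet at 35 °C, and the salt plus heat, mannitol plus heat and 3-stress groups had both the watering and the cabinet. The control group had neither. No matched watering with plain water was recorded for control and heat plants, so watering itself cannot be told apart from the solutes where a watered group is compared with an unwatered one, nor can the cabinet be told apart from its temperature. How many plants went into each replicate is not given in the labels.

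Libraries held 12.5 M to 19.5 M reads (M, 1e6) and detected 21885 to 22379 genes. The 3 leaf markers (RBCS1A, LHCB1.1 and RCA) summed to between 14921 and 39342 TPM (transcript abundance per transcript length, scaled within a library) per library, against at most 1.42 TPM for 4 root, 0.673 TPM for 3 flower and 0.978 TPM for 3 seed markers. Their sum ran from 33684 to 39342 TPM in control and from 18980 to 21067 TPM in heat, and its part in the results below was not tested. The second mannitol plus heat library stood apart, with 0.690% of reads on organelle-encoded genes against a median of 0.0544%, and had the fewest reads.

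The 4 cytosolic HSP90 genes differ in how alike their coding sequences are, and the stretch printed here was chosen to show it. HSP90.2, HSP90.3 and HSP90.4 lie close together on chromosome 5 in RefSeq's TAIR10.1 annotation, at chr5:22686473-22689671 (plus strand), chr5:22681238-22684252 (plus strand) and chr5:22677338-22680152 (minus strand). HSP90.1 lies apart at chr5:21352557-21355147 (plus strand). Below are 60 coding bases of each, 5′ to 3′ on the coding strand, with capitals where a base differs from HSP90.2; they come from the exons at chr5:21353861-21353920, chr5:22688147-22688206, chr5:22682625-22682684 and chr5:22678829-22678888.
HSP90.1: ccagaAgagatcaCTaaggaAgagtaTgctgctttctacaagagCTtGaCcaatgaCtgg
HSP90.2: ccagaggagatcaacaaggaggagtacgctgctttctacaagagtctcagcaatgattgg
HSP90.3: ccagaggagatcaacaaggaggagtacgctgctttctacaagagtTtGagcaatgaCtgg
HSP90.4: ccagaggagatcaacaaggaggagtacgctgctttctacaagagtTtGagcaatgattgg

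Against HSP90.2 this stretch has 10 differences in HSP90.1, 3 in HSP90.3 and 2 in HSP90.4. Over the whole aligned coding sequence, HSP90.2 and HSP90.3 are identical at 95.7% of bases, HSP90.3 and HSP90.4 at 95.4%, and HSP90.2 and HSP90.4 at 94.3%, while HSP90.1 is 78.9% to 79.5% identical to them. Of all 31-base words in the coding sequence, 36.4% in HSP90.2, 44.0% in HSP90.3 and 34.6% in HSP90.4 occur in another gene, and none does in the other 7 genes. The split of reads among HSP90.2, HSP90.3 and HSP90.4 is therefore an estimate of the authors' counting, and their summed counts were tested too. How many reads fit several of these genes was not measured.

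Heat gave the largest changes. Against control, 9 of the 10 genes rose and none fell, while 62.6% of all tested genes were called, 31.7% higher and 30.9% lower. Their median log2 fold change was 2.27, against -0.00 over all genes. The gene that was not called was CLPB3 of the plastid. A call is a Benjamini-Hochberg adjusted p under 0.05 over all genes in edgeR's quasi-likelihood test, a fold change is on the log2 scale of normalised counts with the standard error (SE) of the fit, and levels are deposited TPM, which is per transcript length, in the order of replicates 1, 2 and 3. In rosettes taken whole, fewer cells of a type and less RNA per cell cannot be told apart. Heat and all other comparisons with control share the 3 control libraries.

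**Figure D1:**
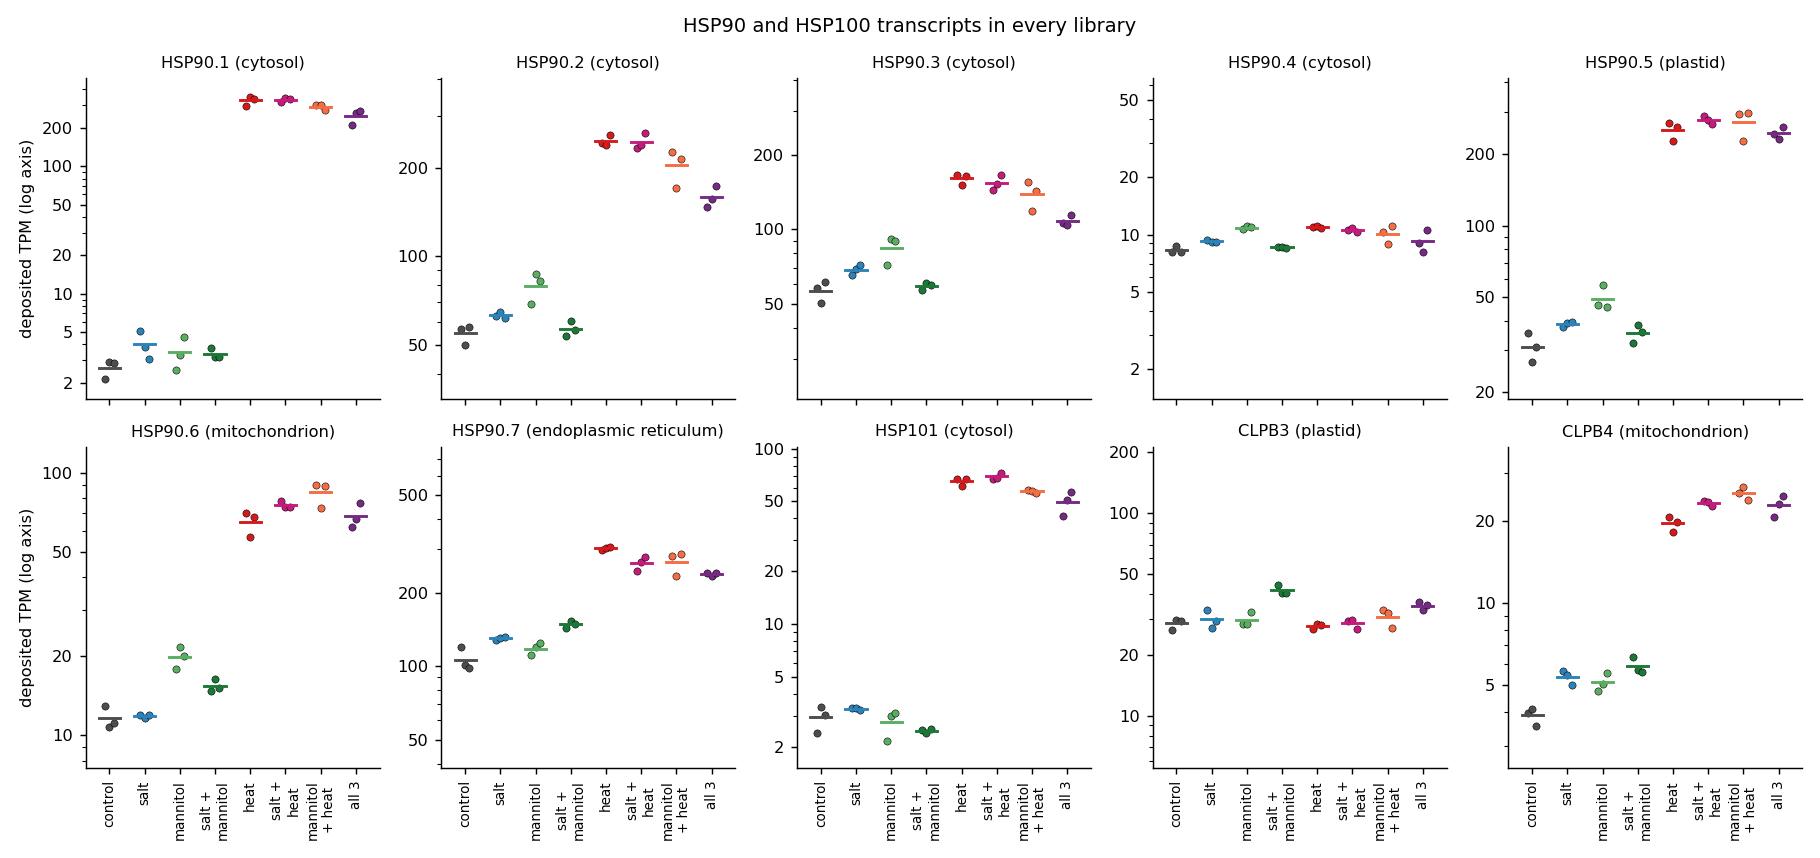
Deposited TPM (log axis) of the 10 chaperone genes in each of the 24 libraries, 1 panel per gene; points are libraries in the order of replicates 1 to 3 and bars are group means. Every heated library lies above every unheated one for 8 genes; the exceptions are HSP90.4, whose levels stay between 8.12 and 11.1 TPM in all 24 libraries, and CLPB3, whose highest group is salt plus mannitol.

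HSP90.1, the heat-inducible cytosolic HSP90, was at 2.13, 2.89 and 2.84 TPM in control and at 298.8, 348.2 and 335.6 TPM in heat. Group means were 2.62 ± 0.43 TPM (SD, n = 3) and 328 ± 25.7 TPM (SD, n = 3), a 125-fold difference, and control libraries held 119 to 161 of its reads. The groups were far apart, with a log2 fold change of 6.99 ± 0.21 (SE; edgeR's quasi-likelihood test, Benjamini-Hochberg adjusted p = 6.4e-17). HSP90.2, one of the constitutive cytosolic genes, was at 56.5, 50.1 and 57.5 TPM in control and at 241.6, 238.2 and 258.3 TPM in heat. It rose by 2.19 ± 0.11 (SE) on the log2 scale. HSP90.3, its constitutive neighbour, was at 57.7, 50.6 and 61.4 TPM in control and at 165.2, 151.3 and 164.5 TPM in heat, a rise of 1.52 ± 0.10 (SE) with no overlap. HSP90.4, the least abundant of the 4 in heated libraries, was at 8.14, 8.73 and 8.14 TPM in control and at 10.95, 11.08 and 10.85 TPM in heat. Its rise of 0.41 ± 0.08 (SE; edgeR adjusted p = 0.00012) was called although small. Summed, HSP90.2 to HSP90.4 rose by 1.83 ± 0.10 (SE; edgeR adjusted p = 5.0e-13).

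The make-up of the cytosolic HSP90 transcript pool differed between heat and control. The summed level of HSP90.1 to HSP90.4 was 122 ± 8.96 TPM in control and 745 ± 26.6 TPM in heat (SD, n = 3 each). HSP90.1 made up 1.71%, 2.57% and 2.18% of this sum in the control libraries and 41.7%, 46.5% and 43.6% in the heat libraries. The shares did not overlap (exact permutation test, two-sided, p = 0.1, the smallest that 3 against 3 libraries allow). In the other heated groups the mean share lay between 44.9% and 47.1%, and in the other unheated groups between 1.94% and 2.77%. The ratio of HSP90.2 to HSP90.3 was 0.969 ± 0.0277 in control and 1.54 ± 0.0634 in heat (SD, n = 3 each); across all 8 groups every unheated library had a ratio under 1 and every heated one a ratio of at least 1.38. HSP90.4 had a share of 6.86% ± 0.801 in control and of 1.47% ± 0.0589 in heat (SD, n = 3 each) although its own level was higher.

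**Figure D2:**
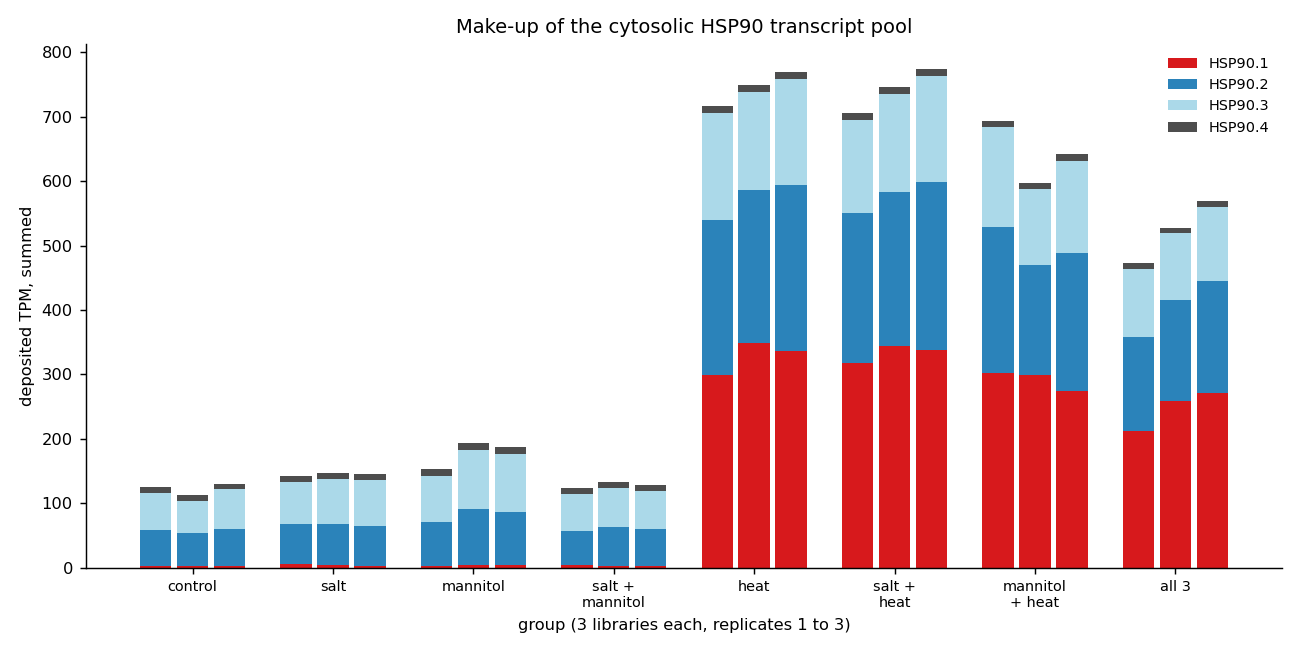
Stacked bars of deposited TPM of HSP90.1 to HSP90.4 in each of the 24 libraries, 1 bar per library and 3 per group. HSP90.1 is a thin strip in unheated libraries and 41.7% to 50.1% of the bar in heated ones, and the bars are lower with all 3 stresses (523 TPM on average) than with heat alone (745 TPM).

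The 3 HSP90 genes of the organelles and the endoplasmic reticulum also rose with heat. HSP90.5, the plastid HSP90, was at 35.3, 26.8 and 30.98 TPM in control and at 268.0, 226.5 and 258.5 TPM in heat. This 8.09-fold difference, a log2 fold change of 3.03 ± 0.12 (SE; edgeR adjusted p = 1.7e-15), brought it to a level near that of HSP90.2. HSP90.6, the mitochondrial HSP90, was at 12.9, 10.8 and 11.1 TPM in control and at 70.1, 56.9 and 67.9 TPM in heat, a log2 fold change of 2.50 ± 0.11 (SE). HSP90.7, the relative of mammalian GRP94 in the endoplasmic reticulum, had the highest level of the 10 in control at 119.5, 100.8 and 98.4 TPM. It was at 297.1, 305.4 and 307.9 TPM in heat, a rise of 1.53 ± 0.09 (SE). Heat and control libraries did not overlap in any of the 3 genes.

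The 3 HSP100 genes, each of another compartment, differed in their change with heat. HSP101 of the cytosol was at 2.40, 3.37 and 3.05 TPM in control and at 66.9, 61.5 and 67.1 TPM in heat, a 22.2-fold difference and a log2 fold change of 4.49 ± 0.13 (SE; edgeR adjusted p = 6.9e-18). CLPB4 of mitochondria was at 3.97, 4.11 and 3.56 TPM in control and at 20.7, 18.3 and 19.9 TPM in heat, a rise of 2.36 ± 0.08 (SE; edgeR adjusted p = 2.3e-16). CLPB3, the plastid ClpB that chloroplast development depends on, was at 26.6, 29.8 and 29.4 TPM in control and at 26.9, 28.6 and 28.0 TPM in heat. These groups overlapped, and the log2 fold change was -0.02 ± 0.08 (SE; edgeR adjusted p = 0.85). In control CLPB3 was therefore the most abundant of the 3 HSP100 transcripts, and in heat HSP101 was.

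In the authors' deposited table, the q-value of CLPB3 under heat was 0.00946 beside a natural-log fold change of -0.00894. At a q-value under 0.05, the authors' deposited table has 9 of the 10 genes higher and 1 lower in heat, all 10 higher in each of the 3 heated combinations, 1 higher with salt, 6 with mannitol and 4 with salt plus mannitol. The share of all genes under that q-value was not taken, so these counts of members stand without it. In the authors' deposited table CLPB3 under salt plus heat had a q-value of 0.00635 beside a natural-log fold change of 0.0289. It was not called in the edgeR test.

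**Figure D3:**
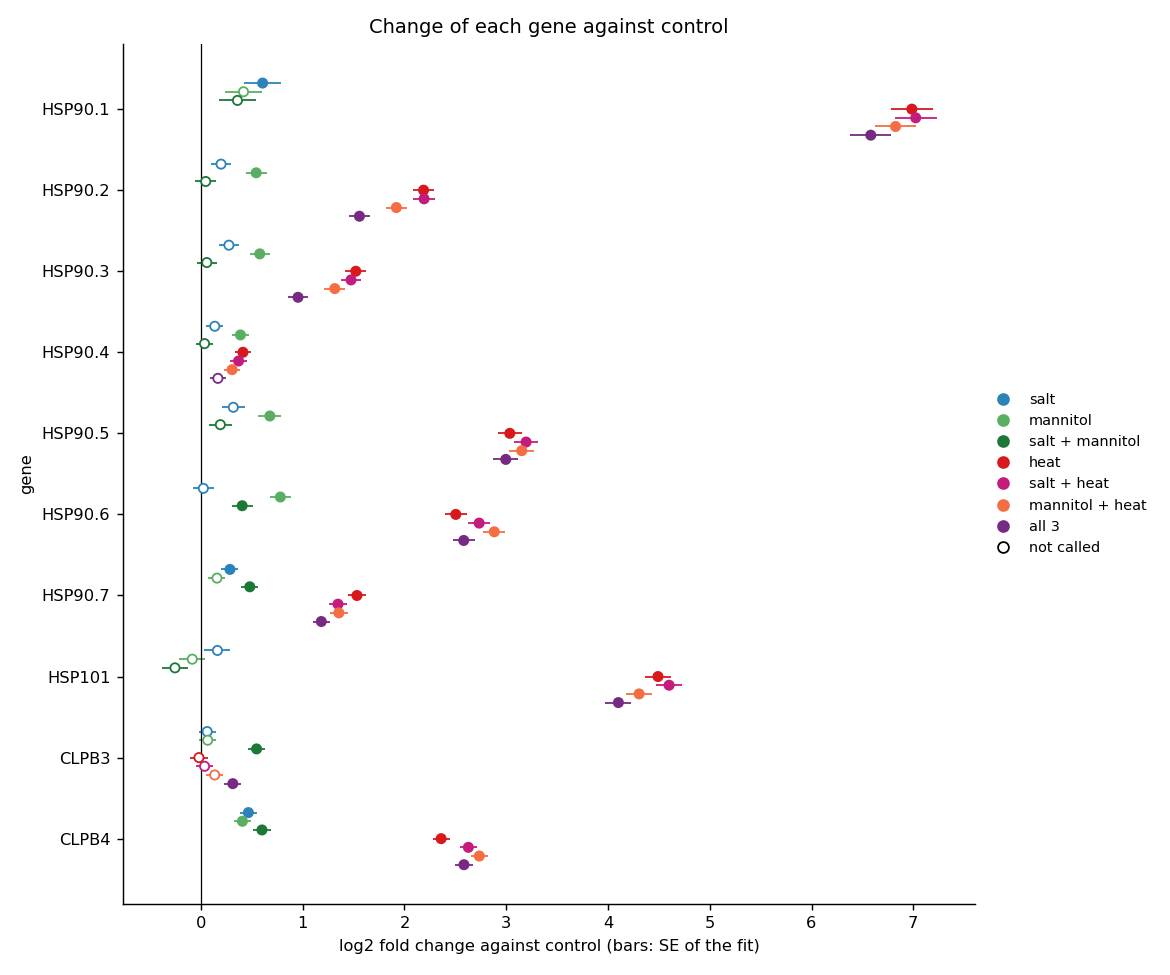
Log2 fold change of each gene against control in the 7 stressed groups, with the SE of the fit as bars; filled points were called at an adjusted p under 0.05 and open points were not. Heated groups form a separate cluster to the right for 8 genes, from 6.58 to 7.02 for HSP90.1, while CLPB3 and HSP90.4 stay within 0.55 of 0.

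Promoter sequence was set beside these heat changes because members that move together may hold the same motifs. The 250 bases before the start of each counted transcript were searched on both strands for the two-unit heat shock element (GAANNTTC or TTCNNGAA), for the three-unit form (the first followed by NNGAA or the second by NNTTC, which therefore also counts as 2 overlapping two-unit elements), and for the ER stress element of unfolded protein response genes (CCAAT, then 9 bases of any kind, then CCACG). A two-unit element occurred in 15.8% of 23185 such windows, a three-unit element in 0.362% and an ER stress element in 0.354%. HSP90.1 held 3 two-unit elements, of which the 2 that overlap make up 1 three-unit element. Its window at chr5:21352149-21352398 (TAIR10.1, plus strand) is shown with the elements in capitals.
HSP90.1 upstream: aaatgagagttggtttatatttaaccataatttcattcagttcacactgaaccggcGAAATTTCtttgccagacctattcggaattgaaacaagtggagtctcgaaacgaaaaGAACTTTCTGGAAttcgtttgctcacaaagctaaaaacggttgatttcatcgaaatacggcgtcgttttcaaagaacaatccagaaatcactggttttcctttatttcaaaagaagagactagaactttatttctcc

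HSP101 and CLPB3 each held 1 two-unit element, and HSP90.7 held 1 ER stress element. These are shown with their flanks, motif in capitals, 5′ to 3′ on each gene's own strand, which is the minus strand at chr1:27940322-27940351, chr5:5018463-5018492 and chr4:12556059-12556088.
HSP101 (31 bases before the start): ataaaataagcGAAAATTCcacgtgacatc
CLPB3 (134 bases before the start): catcccgatggTTCACGAAgactccggcgt
HSP90.7 (22 bases before the start): accttgctCCAATACAAAACTACCACGtgg

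The element thus occurred in the windows of HSP90.1 and HSP101, which rose most with heat, and also in that of CLPB3, which was not called. The HSP101 site lies before the start of the counted transcript but inside the annotated gene, chr1:27936508-27940369. The other 6 genes held none of these letters within 250 bases, 5 of them with heat changes of 1.52 to 3.03 on the log2 scale. For HSP90.2 the window, chr5:22686582-22686831, lies inside the annotated gene, so the bases before that gene were not searched. A match is a description of the letters and not a bound site. The start of HSP90.1 was taken from the deposited description because its RefSeq model is marked as partial. The HSP101 gene is also marked as partial, but the start of its RefSeq model was used.

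Without heat the changes were small. With salt, 3 of the 10 genes rose and none fell, beside 11% of all genes called, 4.54% higher and 6.41% lower. CLPB4 was at 5.65, 5.46 and 5.03 TPM, above all control libraries, with a log2 fold change of 0.47 ± 0.09 (SE; edgeR adjusted p = 0.0013). HSP90.1 was at 5.14, 3.80 and 3.08 TPM (log2 fold change 0.61 ± 0.18, SE; edgeR adjusted p = 0.038). HSP90.7 was at 127.9, 130.4 and 131.6 TPM (0.28 ± 0.08, SE; edgeR adjusted p = 0.030). Neither group overlapped with control, but each call was lost when any of several libraries was left out. Without control replicate 1, 2 or 3 or salt replicate 1 or 2, the adjusted p of HSP90.1 was 0.056 to 0.21, and without control replicate 2 or 3 or any one of the salt replicates that of HSP90.7 was 0.059 to 0.13. HSP90.1 also lost its call with the groups compared fitted alone (edgeR adjusted p = 0.074) and in limma on log2(TPM + 1) (adjusted p = 0.0505). Library totals alone would move the median of all genes by 0.11 with salt, by 0.11 with salt plus mannitol, by 0.12 with mannitol plus heat and by 0.17 with all 3 stresses; the changes given here are relative to the normalised median.

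With mannitol, 6 genes rose and none fell, beside 23.6% of all genes called, 12.2% higher and 11.4% lower. HSP90.6 had the largest of these changes, at 17.9, 21.8 and 19.98 TPM, a log2 fold change of 0.78 ± 0.10 (SE; edgeR adjusted p = 1.2e-05). HSP90.5 was at 46.7, 56.1 and 45.4 TPM, a rise of 0.68 ± 0.11 (SE). HSP90.2 was at 68.7, 87.4 and 82.4 TPM, all above control, a rise of 0.54 ± 0.10 (SE). The other three genes were HSP90.3 (0.58 ± 0.10, SE), HSP90.4 (0.39 ± 0.08, SE) and CLPB4 (0.41 ± 0.08, SE). HSP101 (-0.09 ± 0.13, SE) was not called. Neither was HSP90.1 (0.42 ± 0.18, SE; edgeR adjusted p = 0.11), although its value was as large as those of HSP90.4 and CLPB4. It was called with library totals alone (0.52, edgeR adjusted p = 0.047) and without mannitol replicate 1 (0.59, edgeR adjusted p = 0.017), and ranged from 0.18 to 0.59 with each library left out in turn. HSP90.4 was as high with mannitol (10.6, 11.1 and 10.9 TPM) as with heat.

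With salt and mannitol in one solution, 4 genes rose and none fell, beside 32.6% of all genes called, 15.4% higher and 17.2% lower. They were CLPB4 (0.60 ± 0.08, SE), CLPB3 (0.55 ± 0.08, SE), HSP90.7 (0.48 ± 0.08, SE) and HSP90.6 (0.40 ± 0.10, SE). CLPB3 was at 44.5, 40.5 and 40.7 TPM, above each library of the other 7 groups, and HSP90.7 was at 143.0, 153.5 and 149.1 TPM. HSP90.2 was at 53.6, 60.1 and 56.4 TPM, a range that overlaps control, with a log2 fold change of 0.05 ± 0.10 (SE; edgeR adjusted p = 0.76). HSP90.3, HSP90.4 and HSP90.5 were likewise not called, at 0.06, 0.04 and 0.19.

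The joint effect of salt and mannitol was set against the sum of the single effects on the log2 scale. It departed from that sum in 5 of the 10 genes, beside 6.6% of all genes called, 2.84% higher and 3.76% lower. It was lower in HSP90.5 (-0.80 ± 0.16, SE), HSP90.3 (-0.79 ± 0.14, SE), HSP90.2 (-0.69 ± 0.14, SE) and HSP90.4 (-0.49 ± 0.11, SE), and higher in CLPB3 (0.42 ± 0.12, SE; edgeR adjusted p = 0.038). A watering effect enters this sum for both solutes but the combination once, so the departure cannot be told apart from one. The call of CLPB3 was lost without control replicate 2 or 3, salt replicate 2 or 3, mannitol replicate 1 or 2, or salt plus mannitol replicate 1 or 3, with adjusted p of 0.060 to 0.11, and with library totals alone (0.33, edgeR adjusted p = 0.10).

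Every combination that held heat was again far from control. With salt plus heat, 9 genes rose and none fell, beside 63.2% of all genes called, 31.7% higher and 31.5% lower. With mannitol plus heat 9 rose and none fell, beside 64.7%, 32.6% higher and 32% lower. With all 3 stresses 9 rose and none fell, beside 65.7%, 33% higher and 32.7% lower. CLPB3 was not called with salt plus heat (0.04 ± 0.08, SE) or with mannitol plus heat (0.13 ± 0.08, SE). With mannitol plus heat it was called with library totals alone (0.26, edgeR adjusted p = 0.011) and without replicate 3 of that group (0.21, edgeR adjusted p = 0.038). It was called with all 3 stresses (0.31 ± 0.08, SE; edgeR adjusted p = 0.0025), where its levels were 36.4, 33.3 and 35.4 TPM. HSP90.4 was the gene not called with all 3 stresses (0.17 ± 0.08, SE; edgeR adjusted p = 0.080); without replicate 2 of that group it was called at 0.25, and library totals alone gave 0.34.

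Salt added to heat gave few calls. Against heat alone, edgeR called none of the 10 genes, beside 1.03% of all genes, 0.365% higher and 0.664% lower. Of the 10, 3 had an unadjusted p under 0.05, limma on log2(TPM + 1) called 0, and DESeq2 called 1, CLPB4, at 0.26 (adjusted p = 0.042). The shares of all genes that belong to these counts are not given here. In edgeR CLPB4 was 0.27 ± 0.08 (SE; adjusted p = 0.094) higher, at 23.8, 23.5 and 22.9 TPM against 20.7, 18.3 and 19.9 TPM. HSP90.1 was at 317.6, 344.1 and 337.0 TPM, a difference of 0.04 ± 0.15 (SE) from heat alone. HSP90.7 was not called either, but at 245.6, 266.1 and 279.9 TPM it lay below every heat library.

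Mannitol added to heat raised 2 genes, both mitochondrial, and lowered none, beside 12.3% of all genes called, 6% higher and 6.31% lower. CLPB4 was at 25.5, 26.8 and 23.9 TPM, 0.37 ± 0.08 (SE; edgeR adjusted p = 0.0034) above heat alone. HSP90.6 was at 89.6, 73.7 and 89.1 TPM, 0.38 ± 0.10 (SE; edgeR adjusted p = 0.018) above. Without heat replicate 2, mannitol plus heat replicate 1 or mannitol plus heat replicate 3 the call of HSP90.6 was lost, with adjusted p of 0.064 to 0.12. With the 2 groups fitted alone neither gene was called (adjusted p of 0.13 for HSP90.6 and 0.065 for CLPB4).

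Salt and mannitol added together to heat gave changes in both directions: 2 genes rose and 5 fell, beside 23.1% of all genes called, with 9.97% higher and 13.1% lower. HSP90.2 was at 146.7, 156.6 and 173.2 TPM with all 3 stresses, below each heat library, and fell by 0.63 on the log2 scale (SE 0.10; edgeR adjusted p = 0.00019). HSP90.3 was at 106.1, 103.6 and 114.6 TPM and fell by 0.57 (SE 0.10; edgeR adjusted p = 0.00039). HSP90.7, at 240.4, 232.7 and 240.1 TPM, fell by 0.35 (SE 0.08; edgeR adjusted p = 0.0045). CLPB3 rose by 0.33 ± 0.08 (SE; edgeR adjusted p = 0.0069) over heat alone. These 4 calls held in every alternative run here, and the sum of HSP90.2 to HSP90.4 fell by 0.60 (SE 0.10). The cytosolic pool of HSP90.1 to HSP90.4 was at 523 ± 48.4 TPM (SD, n = 3) against 745 ± 26.6 TPM (SD, n = 3) with heat alone.

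The calls of HSP101, HSP90.4 and CLPB4 in that comparison were lost in some alternatives. HSP101 was at 41.5, 51.03 and 56.4 TPM and fell by 0.39 (SE 0.11; edgeR adjusted p = 0.013), a call lost without replicate 1 of the 3-stress group (adjusted p = 0.10), with library totals alone (adjusted p = 0.066) and with the 2 groups fitted alone (adjusted p = 0.054). HSP90.4 fell by 0.25 (SE 0.08; edgeR adjusted p = 0.031), a call lost without any one of the heat replicates or without replicate 1 or 2 of the 3-stress group (adjusted p of 0.051 to 0.19), with library totals alone (-0.14, adjusted p = 0.24) and with the 2 groups fitted alone (adjusted p = 0.16). CLPB4, at 20.7, 23.2 and 24.9 TPM, rose by 0.22 ± 0.08 (SE; edgeR adjusted p = 0.036), which was lost without heat replicate 2 or 3 or replicate 2 or 3 of the 3-stress group (adjusted p of 0.067 to 0.18), with the 2 groups fitted alone (adjusted p = 0.11) and in limma on log2(TPM + 0.1) (adjusted p = 0.060). HSP90.1, at 211.5, 259.0 and 271.4 TPM, lay below every heat library but was not called (-0.40 ± 0.15, SE, edgeR adjusted p = 0.062). It was called in DESeq2 (adjusted p = 0.041) and with the 2 groups fitted alone (-0.38, edgeR adjusted p = 0.040).

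HSP90.5 and HSP90.6 were close to their heat levels with all 3 stresses, at 242.1, 231.1 and 258.7 TPM and at 62.3, 66.7 and 76.6 TPM, and overlapped heat alone. Their differences from heat were -0.04 ± 0.11 (SE) and 0.08 ± 0.10 (SE), neither called. The ratio of these organellar HSP90 genes to the 4 cytosolic ones, in summed TPM, was 0.349 ± 0.034 in control, 0.425 ± 0.0467 in heat, 0.477 ± 0.041 in salt plus heat, 0.550 ± 0.0483 in mannitol plus heat and 0.599 ± 0.0402 with all 3 stresses (SD, n = 3 each). Libraries of the 3-stress group (0.565 to 0.643) all lay above those of heat alone (0.379 to 0.472). This ratio was chosen after its values were seen and is given as a description.

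**Figure D4:**
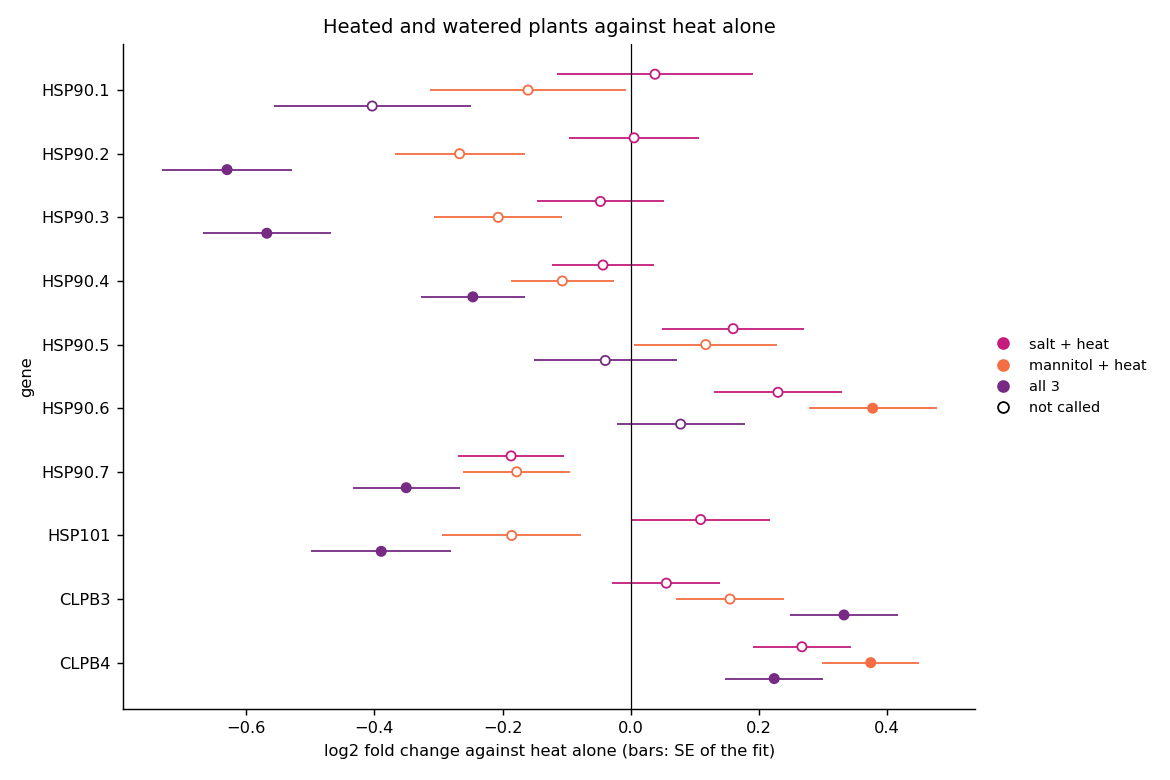
Log2 fold change against heat alone for heated plants that had also been watered with salt, mannitol or both, with the SE of the fit as bars; filled points were called. Salt alone gives no filled point; with both solutes HSP90.2 (-0.63) and HSP90.3 (-0.57) are farthest left and CLPB3 (0.33) farthest right among the called genes.

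The effect of heat was also taken within each watered background. Against salt-treated plants at 22 °C, 9 genes rose, beside 59.1% of all genes called, 30.6% higher and 28.5% lower. Against mannitol-treated plants 8 rose, beside 61%, 30.9% higher and 30.2% lower. Against plants with both solutes 8 rose and 1 fell, beside 59.9%, 30.5% higher and 29.4% lower. HSP90.1 rose by 6.42 ± 0.20, 6.41 ± 0.20 and 6.22 ± 0.20 (SE) on these backgrounds and HSP101 by 4.44 ± 0.13, 4.39 ± 0.13 and 4.36 ± 0.13 (SE). HSP90.4 rose on salt (0.23 ± 0.08, SE; edgeR adjusted p = 0.017), a call lost without salt replicate 2 or salt plus heat replicate 2 (adjusted p of 0.052 and 0.057). On mannitol it was not called (-0.08 ± 0.08, SE). CLPB3 fell on the background of both solutes (-0.23 ± 0.08, SE; edgeR adjusted p = 0.020), a call lost without salt plus mannitol replicate 1 or 3-stress replicate 2 (adjusted p of 0.090 and 0.082) and with library totals alone (0.084).

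Whether heat acted differently on watered plants was tested as the departure from the sum of the separate log2 effects, in which a watering effect cancels where it is the same at both temperatures. An effect of watering on the heat response itself cannot be told apart from one of the solutes. For mannitol and heat 4 of the 10 genes fell short of the sum and none exceeded it, beside 8.78% of all genes called, 3.59% higher and 5.19% lower. They were HSP90.2 (-0.81 ± 0.14, SE; edgeR adjusted p = 0.0017), HSP90.3 (-0.78 ± 0.14, SE; edgeR adjusted p = 0.0019), HSP90.4 (-0.49 ± 0.11, SE) and HSP90.5 (-0.56 ± 0.16, SE; edgeR adjusted p = 0.031). In levels, HSP90.2 went from 79.5 ± 9.69 TPM with mannitol to 204 ± 29.4 TPM with mannitol plus heat, and from 54.7 ± 4.02 TPM in control to 246 ± 10.8 TPM in heat (SD, n = 3 each). Heat thus raised HSP90.2 2.56-fold on mannitol and 4.50-fold in unwatered plants. The call of HSP90.5 was lost without control replicate 2 or 3, mannitol replicate 2, heat replicate 1 or 3, or mannitol plus heat replicate 2 (edgeR adjusted p of 0.0504 to 0.0973). The last of these is the library with the highest organelle share. With the groups compared fitted alone HSP90.5 was not called either (-0.58, edgeR adjusted p = 0.12). The calls of HSP90.2, HSP90.3 and HSP90.4 held without each library in turn. DESeq2 called HSP90.7 as well (-0.33, adjusted p = 0.037).

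For salt plus mannitol and heat, 3 genes fell short of the sum and none exceeded it, beside 5.58% of all genes called, 2.47% higher and 3.11% lower. They were HSP90.7 (-0.83 ± 0.12, SE; edgeR adjusted p = 0.00032), HSP90.2 (-0.68 ± 0.14, SE; edgeR adjusted p = 0.0080) and HSP90.3 (-0.63 ± 0.14, SE; edgeR adjusted p = 0.012). HSP90.1 had a value of -0.76 ± 0.24 (SE) and was not called (edgeR adjusted p = 0.065). HSP90.7 went from 149 ± 5.28 TPM with both solutes to 238 ± 4.35 TPM with heat added, and from 106 ± 11.5 TPM in control to 303 ± 5.62 TPM in heat (SD, n = 3 each). DESeq2 called HSP90.1 (-0.77) and CLPB4 (-0.39) as well, and without replicate 3 of the 3-stress group 5 genes were called. With the groups compared fitted alone HSP90.1 was also called (-0.77, edgeR adjusted p = 0.022).

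For salt and heat 1 gene was called, HSP90.7 (-0.47 ± 0.12, SE; edgeR adjusted p = 0.047), beside 1.4% of all genes, 0.859% higher and 0.544% lower. The call was lost without control replicate 2 or 3, any one of the salt replicates, heat replicate 2 or 3, or salt plus heat replicate 1 or 2, with adjusted p of 0.071 to 0.13. HSP101 was called in none of these departures, with values of -0.05, -0.10 and -0.13.

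**Figure D5:**
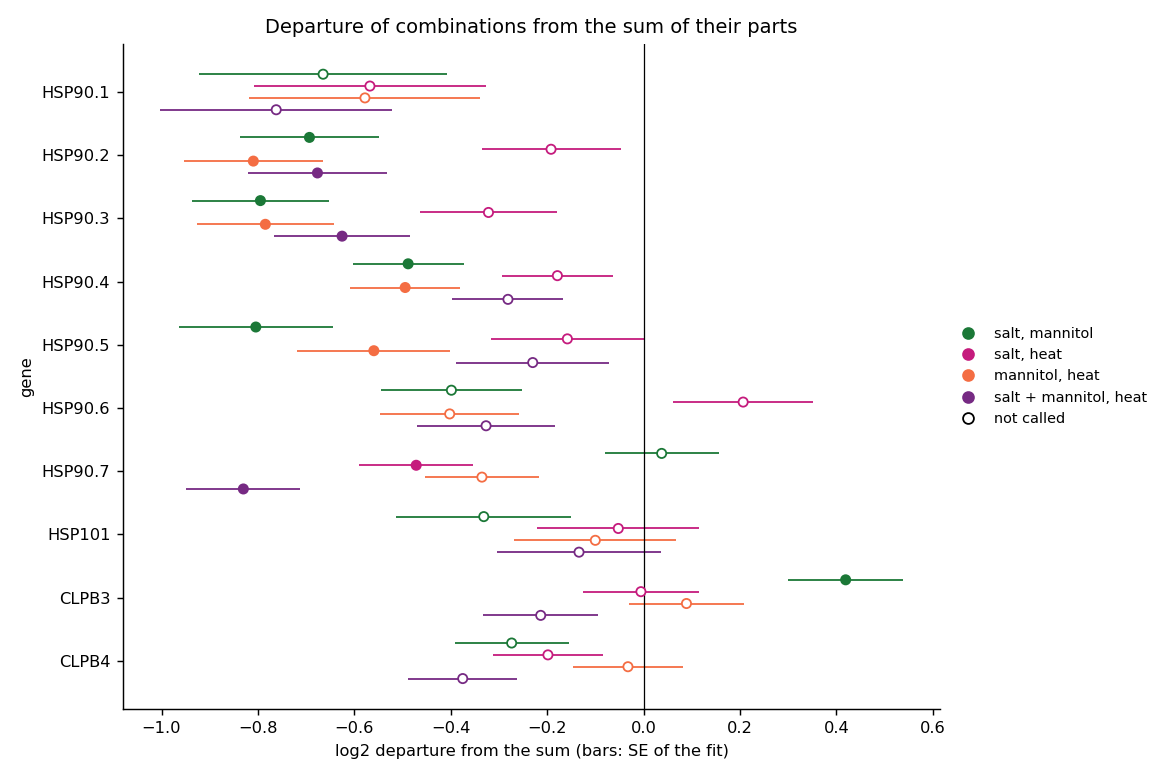
Departure of each combination from the sum of its separate log2 effects, with the SE of the fit as bars; filled points were called. For HSP90.2 and HSP90.3 the points of salt and mannitol, mannitol and heat, and salt plus mannitol and heat lie between -0.81 and -0.63, while those of HSP101 lie between -0.33 and -0.05.

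The order of levels across the 8 groups put all heated groups above all unheated ones for 8 genes. HSP90.1 ran from 333 TPM in salt plus heat through heat, mannitol plus heat and the 3-stress group (247 TPM), and then from salt (4.00 TPM) through mannitol and salt plus mannitol to control (2.62 TPM). The step from heated to unheated was the sole pair of neighbours that differed (edgeR adjusted p = 5.2e-16). HSP101 had the same heated order, from 69.6 to 49.7 TPM, and again a single step that differed. HSP90.6 stood highest in mannitol plus heat (84.1 ± 9.05 TPM, SD, n = 3) and CLPB4 likewise (25.4 ± 1.44 TPM, SD, n = 3). In HSP90.4 no neighbours differed, from 10.96 TPM in heat to 8.34 TPM in control. In CLPB3 the step from salt plus mannitol (41.9 ± 2.25 TPM) to the 3-stress group (35.0 ± 1.62 TPM; SD, n = 3 each) differed (edgeR adjusted p = 0.020), and no other neighbours did.

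Partners of HSP90 and HSP101 were read from lists of 15 co-chaperones, 8 genes of the HSP100 side (7 further Clp ATPases and HSA32), and 4 clients. Of the co-chaperones, 9 rose with heat, 1 fell and 5 were not called, with a median log2 fold change of 0.54, beside 62.6% of all genes called and a median of -0.00 over all genes. HOP3, a HOP protein that bridges HSP70 and HSP90, rose by 7.75 ± 0.16 (SE), from 0.757, 0.736 and 0.637 TPM to 139, 169 and 149 TPM. ROF2, an FK506-binding immunophilin, rose by 7.07 ± 0.15 (SE), the homologue of AHA1, which stimulates the ATPase of HSP90 in yeast, by 2.58 ± 0.07 (SE), and ROF1, the sister of ROF2, by 2.38 ± 0.08 (SE). TWD1, an immunophilin needed for auxin transport, fell by 0.61 (SE 0.09). Among the Clp list, beside the same share of all genes (31.7% higher and 30.9% lower), 5 rose, 1 fell, 1 was not called and CLPB2, at no more than 0.0408 TPM in any library, was not tested.

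HSA32, which sustains heat memory together with HSP101, rose by 4.83 ± 0.27 (SE), CLPD by 0.60 ± 0.14 (SE), CLPX2 by 0.50 ± 0.08 (SE) and CLPC2 by 0.44 ± 0.10 (SE), while CLPX3 was 0.22 lower (SE 0.09), a call lost without control replicate 1 or 2 or any one of the heat replicates. Of the 4 HSP90 clients 1 rose and 3 fell, beside 62.6% of all genes called. The immune receptor RPS2 rose by 0.44 ± 0.12 (SE), and the immune receptor RPM1 fell by 0.49 (SE 0.15), the photoreceptor ZTL by 0.48 (SE 0.06) and the auxin receptor TIR1 by 0.30 (SE 0.09). The call of TIR1 was lost without heat replicate 2 (adjusted p = 0.051).

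When salt and mannitol were added to heat, 6 of the 15 co-chaperones fell and none rose, beside 23.1% of all genes called and 13.1% lower. AHA1 fell by 0.49 (SE 0.06; edgeR adjusted p = 1.8e-05), from 147, 150 and 149 TPM in heat to 101, 109 and 109 TPM. The cyclophilin CYP40 fell by 0.35 (SE 0.12), a call lost without heat replicate 3 or 3-stress replicate 1 or 2 (adjusted p of 0.077 to 0.20) and with library totals alone (adjusted p = 0.14). For salt plus mannitol and heat, 5 of the 15 co-chaperones fell short of the sum of effects and none exceeded it, beside 5.58% of all genes called and 3.11% lower. ROF2 (-0.94 ± 0.18, SE) and HOP3 (-0.94 ± 0.21, SE; lost without salt plus mannitol replicate 1, adjusted p = 0.063) had the largest departures. Of the 4 clients TIR1 exceeded its sum (0.54 ± 0.13, SE), which was lost without control replicate 3, heat replicate 2 or salt plus mannitol replicate 1 (adjusted p of 0.0505 to 0.0549).

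Without heat, the co-chaperones with the largest called changes under salt were ROF2 (1.35 ± 0.14, SE) and HOP3 (0.90 ± 0.18, SE), of 2 that rose and 0 that fell among 15, beside 11% of all genes called and 4.54% higher. Under mannitol 7 of the 15 co-chaperones rose and none fell, beside 23.6% of all genes called and 12.2% higher. The largest changes were 0.42 (ROF2) and 0.28 (SGT1A, a partner of HSP90 in immune receptor folding). The call of ROF2 was lost without control replicate 1 or 2 or mannitol replicate 3 (adjusted p of 0.079 to 0.26), and that of SGT1A without control replicate 2 or 3 or mannitol replicate 2 (adjusted p of 0.060 to 0.15).

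Other genes followed the members' pattern across libraries. Likeness was Pearson's r of log2(TPM + 1) over 24 libraries, over 13457 genes with a mean of at least 5 TPM, and is a description in which libraries of a group share their treatment. Since heated and unheated libraries lie apart for most of these genes, a value over all 24 rests largely on that split, and the values within the 12 unheated and the 12 heated libraries stand beside some of them. Nearest to HSP90.1 were HOP3 (r = 0.999), ROF2 (0.998) and HSP70T-2, and nearest to HSP101 were HOP3 (0.997), BAG6 (0.997) and the heat shock factor HSFA2 (0.996). Within unheated and heated libraries, HOP3 and HSP90.1 had r of 0.759 and 0.879, while with HSP101 the values were 0.335 and 0.847 for HOP3, 0.000914 and 0.910 for BAG6, and 0.524 and 0.954 for HSFA2. HSP90.5 and HSP90.6 shared HSP60 (AT3G23990, a mitochondrial chaperonin) as the nearest gene, at 0.995 for both, with 0.865 unheated and 0.788 heated for HSP90.5 and 0.971 unheated and 0.616 heated for HSP90.6. HSP90.7 was nearest to AT4G29520 and to BIP2, the HSP70 of the endoplasmic reticulum (0.989). HSP90.2 was nearest to the DnaJ protein AT3G14200 (0.990) and the HSP40 J3 (0.987), and HSP90.3 to the HSP70 AT3G09440 (0.971). CLPB4 was nearest to TRFL3 (0.995, with 0.900 unheated and 0.718 heated). HSP90.4 (0.862, XW6, a ribosomal protein) and CLPB3 (0.919, PPa2) had the weakest nearest neighbours. Between members, r over the 24 libraries was 0.998 for HSP90.1 and HSP101, but 0.516 over unheated and 0.914 over heated libraries. For HSP90.2 and HSP90.3, which share reads, it was 0.987 over all, 0.979 unheated and 0.981 heated. For HSP90.1 and HSP90.4 it was 0.470 over all, 0.349 unheated and 0.580 heated, and for HSP90.1 and CLPB3 -0.190 over all, 0.339 unheated and -0.682 heated.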

How the data were processed

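Per the labels' protocols, total RNA of whole rosettes was made into TruSeq libraries and sequenced as read pairs of 100 bp. CASAVA, kallisto 0.45.1 and sleuth 0.30.0 are named in the submitters' processing notes. The file headers call the deposited estimated counts raw counts of kallisto; each gene has 1 transcript model. In each library, 94.7% to 95.2% of them are whole multiples (within 0.01 reads) of a constant of 0.797 to 1.25, which was divided out before rounding. The deposited TPM values (a signal) sum to 0.920 M to 1.12 M (M, 1e6) per library, so the authors' file holds them rescaled. They are used for levels. The authors' q-values (p-values adjusted in sleuth) and fold changes are, per the file headers, from sleuth; the deposited fold changes are on the natural log (ln) scale, judged from the TPM.

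One edgeR 4.0.16 model (R 4.3.3) over all 24 libraries used TMM scaling, the filterByExpr rule and robust quasi-likelihood testing, leaving 20027 of 27655 genes. Adjusted p-values are over these genes, per comparison. The procedure was also run on simulated counts in which far fewer genes changed than were called in heat. That run cannot show how the procedure behaves with so many changes. Chi-square over degrees of freedom between replicates was 3.31 to 25.0, above sampling noise. Replicates are labelled biological, with nothing on shared plants or trays. A p-value therefore sets a difference only against the spread among these libraries. Libraries were run 12 to a lane, and lane was not part of the model. The deposited descriptions give coordinates for 26643 genes, of which 26642 overlap the same RefSeq gene of TAIR10.1; the build is not given in the sources used here, and sequences are from RefSeq's TAIR10.1 genome. Alignments used Biopython 1.88.

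All 10 members are named; of the partner lists, up to 4 called genes per direction for heat and up to 2 elsewhere, by size, and 3 nearest genes per member. The members and lists were chosen with earlier results of these data known. Alternatives were DESeq2 1.42.0, RLE factors, library totals alone, no filter, only the groups compared, the replicate number as a block, limma 3.58.1 on log2(TPM + 1) and log2(TPM + 0.1), deposited counts as they stand, the summed counts of HSP90.2 to HSP90.4, and each library left out. After the data were seen, leaving out the 2 libraries with organelle shares over double the median was added.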

Additional observations from a re-analysis of the deposited data

Results flagged for a closer look

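The members whose response to one stress differed between backgrounds, by a test of that difference in edgeR's quasi-likelihood fit, are listed with their log2 departures from the sum of effects. No explanation was tested. For salt and mannitol these were HSP90.2 (-0.69, adjusted p = 0.0071), HSP90.3 (-0.79, adjusted p = 0.0027), HSP90.4 (-0.49, adjusted p = 0.014), HSP90.5 (-0.80, adjusted p = 0.0053) and CLPB3 (0.42, adjusted p = 0.038). For salt and heat HSP90.7 departed (-0.47, adjusted p = 0.047). For mannitol and heat HSP90.2 (-0.81, adjusted p = 0.0017), HSP90.3 (-0.78, adjusted p = 0.0019), HSP90.4 (-0.49, adjusted p = 0.0098) and HSP90.5 (-0.56, adjusted p = 0.031) departed. For salt plus mannitol and heat HSP90.2 (-0.68, adjusted p = 0.0080), HSP90.3 (-0.63, adjusted p = 0.012) and HSP90.7 (-0.83, adjusted p = 0.00032) departed. HSP90.2, HSP90.3 and HSP90.4 share reads, and their summed counts departed by -0.73 for salt and mannitol (adjusted p = 0.0041), by -0.79 for mannitol and heat (adjusted p = 0.0014) and by -0.65 for salt plus mannitol and heat (adjusted p = 0.0080), all edgeR. Departures of different combinations share libraries, control among them.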

How the results depend on the processing

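Of 303 recomputed results, which were counts of members called and the share of HSP90.1 in the cytosolic sum, 279 were kept. A count was kept within 1.5 times the reported count. Counts of the alternatives are given without the share of all genes called in the same alternative. The share was kept when its difference between heat and control moved by less than the larger SD of these groups. The others were these. With salt, 3 became 5 in DESeq2 and 6 with library totals alone, and 1 to 3 with a library left out. With salt added to heat, 0 became 1 in DESeq2. With mannitol added to heat, 2 became 0 with the groups compared fitted alone and 1 to 2 with a library left out. For salt and heat, 1 departure became 0 without the filter on low counts, 0 with the replicate number as a block, and 0 to 1 with a library left out. For salt plus mannitol and heat, 3 became 5 in DESeq2 and 3 to 5 with a library left out. The share of HSP90.1 in the cytosolic sum differed between heat and control by 40.5 to 42.9 percentage points with a library left out. For single members 2899 results kept their side of the threshold and, where called, their direction, and 112 did not. Among these 112, 1 reversed and the others crossed the threshold. The reversal was HSP90.4 under heat on mannitol-treated plants, at 1.04 when read as the sum of HSP90.2 to HSP90.4. This is by construction, since the sum is mostly the other genes. Replicate numbers did not pair the libraries: deviations from group means correlated at 0.0104 on average (lowest -0.367, highest 0.310, 84 pairs with the same number) against -0.00528 with other numbers (168 pairs). The block changed 1 call, HSP90.7 for salt and heat (-0.47, edgeR adjusted p = 0.058). Without the 2 libraries of high organelle share, HSP90.1 (adjusted p = 0.054) and the mannitol and heat departure of HSP90.5 (-0.44, adjusted p = 0.069) lost their edgeR calls, the first under salt, where HSP90.5 gained one (0.32, adjusted p = 0.043). Having 3 libraries per group limits small changes most, and HSP90.1 and HSP101 rest on few reads in unheated plants.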
